A study of Mus musculus with 2 samples.

Results

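Barcodes with the transcripts of neutrophils were described in the second of 2 runs of single cell RNA sequencing deposited for PEP-WT and PEP-619WW mice. A barcode marks a droplet, and a unique molecular identifier (UMI) marks a captured transcript molecule. The gate on raw UMIs required at least 20 UMIs of *S100a8* and *S100a9* together and at least 1 UMI of *Csf3r*, the receptor for granulocyte colony-stimulating factor. It also required fewer than 5 UMIs of the complement genes *C1qa* and *C1qb* together and 0 UMIs of *Cd3e* and of *Cd79a*, the markers of T and B cells. It took 910 of the 20568 barcodes of the second run, of 43965 barcodes in the series. The barcodes were selected on the UMIs of the gate genes, so the levels of these are a description only: *S100a8* stood at 26917 and 15134 UMIs per 1000000 in PEP-WT and PEP-619WW of the second run and 56418 and 71525 in the first, and *Csf3r* at 1174 and 960.2 against 902 and 639. Genes were compared between the genotypes within the second run, and with the same gate in the first run (752 barcodes).

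PEP-WT mice carried the wild type *Ptpn22* allele and PEP-619WW mice a CRISPR/Cas9 allele with an arginine to tryptophan substitution, both on the C57BL/6 background. By the stated design, animals had received LCMV-cl13, clone 13 of lymphocytic choriomeningitis virus and a cause of lasting infection, intravenously, and cells were taken at 8 dpi. The study used young mice of both sexes. It states that the animals for sequencing were matched for age and sex and that 4 to 5 of a genotype were pooled. Sex-linked transcripts of the second run, given below, did not match between its libraries. Live CD45+ cells were sorted before 10x Genomics 3' sequencing, and each run held 1 library per genotype. No library labelled as uninfected was analysed here. The barcode numbers and median genes per barcode of the second run libraries are those stated in the methods of the study, and no source used here describes the first run separately, so that its infection and day are not known here. The protocol and the study describe splenocytes, whereas the labels of both samples name liver, the Jurkat cell line and tumor infiltrating CD45+ cells, so the sources differ on the tissue of the second run. The *Ptpn22* alleles differ by a few bases in an exon, and counted UMIs do not check the genotype of a library.

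Neutrophils are short-lived granulocytes that mature in the bone marrow, where the proteins of the primary, secondary and tertiary granules are made one class after the other. Mature cells carry CXCR2, the receptor that draws them into the blood and into inflamed tissue, and mouse neutrophils carry Ly6G on the surface. In tissues they can themselves make chemokines such as CXCL2, CCL3 and CCL4, and at low oxygen or in tumors they can raise genes of glycolysis. PEP, the phosphatase encoded by *Ptpn22*, restrains antigen receptor signaling in lymphocytes and also acts in myeloid cells.

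In the second run the gate held 236 barcodes of the 9539 in PEP-WT (2.47%, 95% exact binomial interval 2.17 to 2.81). In PEP-619WW it held 674 of 11029 (6.11%, interval 5.67 to 6.57). The first run gave 426 of 14821 (2.87%) in PEP-WT, against 326 of 8576 (3.80%) in PEP-619WW. The share was therefore higher in PEP-619WW in both runs, by different amounts, and with 1 library per genotype and run no test was made. Gated barcodes were shallow, with a median of 1491 UMIs and 645.5 genes in PEP-WT and 1807.5 UMIs and 817.5 genes in PEP-619WW, against 2347 and 3465.5 UMIs in the first run. The gated UMIs summed to 460670 and 2170485 in the second run and to 1496034 and 1485605 in the first. All intervals cover counting error only, since barcodes of a library are not replicates and neither are the runs.

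Several features of the libraries moved with the groups, and their part in the results below was not tested. *Gm42418*, which overlaps a ribosomal RNA repeat, took 7.74% of the gated UMIs of the PEP-WT library and 0.926% of those of PEP-619WW in the second run, and the median mitochondrial share was 3.52% and 0.577%. Of the second run PEP-WT barcodes in the gate, 28 had UMIs of *Xist* without a Y-linked gene, 35 had Y-linked UMIs without *Xist* and 5 had both. In PEP-619WW these numbers were 1, 254 and 0, whereas in the first run 124 and 135 barcodes had *Xist* and 0 had Y-linked UMIs. Over all barcodes the second run PEP-WT library had 2680 of the former kind and 2431 of the latter, and PEP-619WW had 3 and 5104, so sex-linked transcripts did not match between the 2 libraries despite the stated matching. Between 19 and 49 barcode sequences were shared by any pair of libraries, and 0 of them lay in 2 gates. All 6 hepatocyte genes, *Alb* among them, were at 0 in both second run gates. The 6 melanocytic genes summed to 29 UMIs in PEP-WT and 33 in PEP-619WW of the second run, and to 2 and 0 in the first run. The second run gates held 460670 and 2170485 UMIs in all, so the melanocytic share was higher in PEP-WT. The macrophage class of the same libraries (at least 20 UMIs of *C1qa* and *C1qb*, none of *Csf3r*, *Cd3e* or *Cd79a*) gave the level of a gene in cells that should lack neutrophil transcripts, from 3460 PEP-WT and 660 PEP-619WW barcodes with medians of 10471.5 and 8030 UMIs. It left out barcodes with *Csf3r* UMIs and was deeper than the gate, so it can understate the free RNA in gated barcodes.

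Some gated barcodes also held transcripts of antigen-presenting cells. Mixed barcodes, defined after the data were seen by at least 10 UMIs of *Cd74*, *H2-Aa*, *H2-Ab1* and *H2-Eb1* or at least 5 UMIs of 4 monocyte genes (*Csf1r*, *Ccr2* and *Ms4a6c* among them), numbered 8 in PEP-WT and 146 in PEP-619WW of the second run. They were deep, with medians of 8023 and 7237.5 UMIs, and so held 13.7% and 52.5% of the gated UMIs. In the first run 63 and 29 barcodes were mixed, with 36.8% and 22.7% of the UMIs. Their median doublet scores were 0.118 and 0.131 in the second run, against 0.0234 and 0.0253 in the other gated barcodes, from a doublet caller that called 0 to 1 barcodes per library and so had not worked. The 14 monocyte and macrophage genes all had UMIs in all 4 gates, and their sum was 5392 and 8656 UMIs per 1000000 in PEP-WT and PEP-619WW of the second run and 10811 and 9507 in the first. Without mixed barcodes it was 3659 and 2084, and 7861 and 7014. Gene by gene the order of the runs was often the other way. In PEP-WT 7 of 13 genes with at least 50 UMIs were at least 2-fold higher in the second run and 4 lower (median log2 ratio 1.61). In PEP-619WW 11 of 14 were higher and 1 lower (1.94). Without mixed barcodes 5 of 8 were higher and 2 lower (2.47), and 3 of 7 higher and 2 lower (0.89). Main counts below are given with and without them. Leaving them out leaves 228 and 528 barcodes in the second run and 363 and 297 in the first.

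Genes of neutrophil identity that the gate did not use stood above the macrophage class in sum, and some of them stood far below the first run. Levels were computed as UMIs per 1000000 (CPM) of the UMIs summed over a gate, and they are compared between libraries for a gene, not between genes. The 16 genes of the list outside the gate summed to 18755 in PEP-WT and 11211 in PEP-619WW of the second run, 32188 and 48654 in the first, and 2557 and 1701 in the macrophage class of the second. *Cxcr2*, the chemokine receptor of mature neutrophils, stood at 838 in PEP-WT and 772 in PEP-619WW of the second run and at 647 and 459 in the first, against 0.642 and 0.824 in the macrophage class. Without mixed barcodes it stood at 913 and 1314 against 869 and 553, which is 2.38-fold higher in the second run in PEP-619WW. Thinned to 1000 UMIs per barcode, *Cxcr2* was found in 98 of 195 barcodes of PEP-WT (50.3%, 43.0 to 57.5), in 285 of 563 of PEP-619WW (50.6%, 46.4 to 54.8), and in 3 of 3460 and 0 of 660 macrophage class barcodes. Thinning left out 41 and 111 shallower gated barcodes, and the unthinned shares were 63.1% and 70.6%. The gated and macrophage classes thus differed by far more than counting error. *Hdc*, which makes histamine, stood at 690.3 and 568 in the second run and 938 and 685 in the first, against 1.05 and 1.15 in the macrophage class. *Mxd1*, a repressor that opposes Myc, was even flatter, at 966 and 1009 against 1072 and 985, with 24.5 and 45.3 in the macrophage class.

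*Ly6g*, which encodes the surface antigen used to sort mouse neutrophils, was low in both libraries of the second run. It stood at 47.8 CPM (22 UMIs) in PEP-WT and 14.3 (31 UMIs) in PEP-619WW, against 297 and 503 in the first run. The second run was lower by 6.21-fold in PEP-WT (log2 ratio -2.64 [-3.32 to -2.02], square brackets giving exact 95% intervals throughout) and by 35.2-fold in PEP-619WW (-5.14 [-5.71 to -4.62]). Leaving out mixed barcodes gave 7.48-fold and 22.7-fold. At 1000 UMIs per barcode *Ly6g* was found in 4.62% and 1.95% of second run barcodes and in 0 of 3460 and 0 of 660 macrophage class barcodes. By the floor of 3 counts, which is not an exact binomial interval, the latter allow up to 0.0867% and 0.455%. The unthinned shares were 5.51% and 3.41%. The second run gates thus held *Ly6g* above the macrophage class but in few barcodes.

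Single identity genes differed between the runs in both directions. Of 16 described, 4 were at least 2-fold higher and 3 lower in the second run in PEP-WT and 4 higher and 7 lower in PEP-619WW, and without mixed barcodes 1 and 4, and 5 and 5. Over all described genes 10.8% were higher and 18% lower in PEP-WT and 22.7% higher and 7.52% lower in PEP-619WW, and without mixed barcodes 15.4% and 14.9%, and 24.6% and 10.8%, so that several of these counts are near the share of all genes. *Clec4d*, a C-type lectin receptor, was higher in the second run, at 1276 and 1239 CPM against 214 and 145 (5.97-fold in PEP-WT and 8.56-fold in PEP-619WW). *Il1r2*, the decoy receptor for interleukin 1, stood at 460.2 and 528 against 224 and 192. *Clec4e*, the receptor Mincle, was 2.23-fold and 2.30-fold higher. Without mixed barcodes *Clec4d* was the 1 identity gene at least 2-fold higher in PEP-WT, so *Il1r2* and *Clec4e* did not reach 2-fold there. In the opposite direction stood *Retnlg*, the resistin-like gene of maturing neutrophils, at 3809.7 and 784 in the second run against 16901 and 31994 in the first, lower by 4.44-fold and 40.8-fold. *Pglyrp1*, a peptidoglycan-binding granule protein, stood at 449 and 294 against 1919 and 2532.

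**Figure D1:**
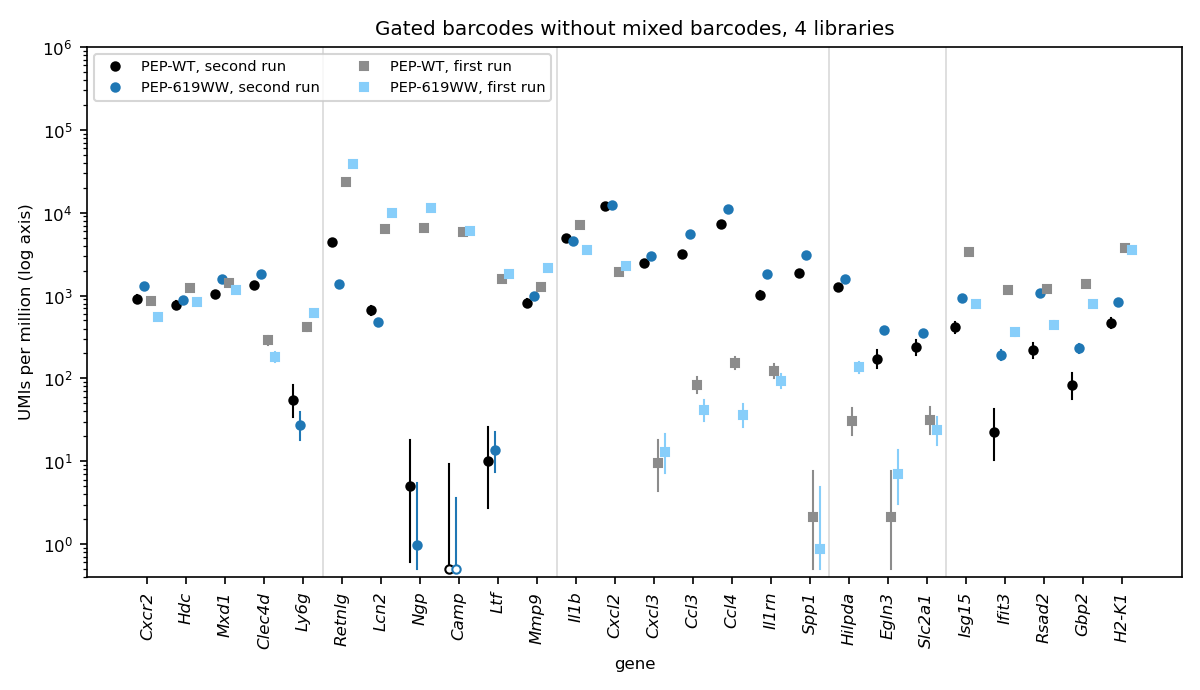
UMIs per 1000000 (log axis) of 26 genes in gated barcodes without mixed barcodes, with exact Poisson 95% intervals as lines, circles for the second run and squares for the first (PEP-WT black and gray, PEP-619WW blue and light blue); open circles on the floor of the axis are genes at 0. *Hdc* and *Mxd1* lay within 2-fold in all 4 libraries, *Cxcr2* lay 2.38-fold higher in the second run in PEP-619WW, *Retnlg*, *Lcn2*, *Ngp*, *Camp* and *Ltf* lay lower in the second run, and *Cxcl3*, *Ccl3*, *Ccl4*, *Spp1*, *Hilpda* and *Egln3* lay higher.

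Near the threshold of the gate, 24 PEP-WT barcodes with 20 to 29 UMIs of *S100a8* and *S100a9* had 1181 CPM of *Cxcr2*, and the 28 just outside it with 10 to 19 UMIs had 695. In PEP-619WW the 76 barcodes just inside had 483 and the 98 just outside 541. Of these, 22 and 29 were mixed barcodes, against 0 on either side in PEP-WT, and *Cd74* over all barcodes inside and outside stood at 3028 and 3125 CPM, against 295 and 261. The depth had medians of 1142 and 1173.5 UMIs in PEP-WT and 1450.5 and 1573.5 in PEP-619WW. *Cxcl2* inside and outside stood at 14852 and 22695 CPM in PEP-WT and at 6155 and 7355 in PEP-619WW. *Retnlg* stood at 354 and 261, and at 60.9 and 140, in the same order. *Cxcl2* was thus higher just outside the threshold than just inside it, so its level in a gate depends in part on the threshold.

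The comparison of runs asked which genes set these barcodes apart from barcodes taken by the same gate in the first run. Genes with at least 50 UMIs in a pair of libraries were described, and a gene counted as higher or lower when its ratio was at least 2-fold. In PEP-WT 440 of 4081 described genes were higher in the second run (10.8%) and 734 were lower (18%). In PEP-619WW 1395 of 6142 were higher (22.7%) and 462 lower (7.52%). In both genotypes, whose comparisons share no library, 355 of 4055 genes were higher (8.75%) and 240 lower (5.92%). The median log2 ratio over all described genes was -0.19 in PEP-WT and 0.37 in PEP-619WW, and scaling by that median gave 550 higher and 590 lower genes in PEP-WT and 856 and 781 in PEP-619WW. Without mixed barcodes 428 of 2784 genes were higher in PEP-WT (15.4%) and 414 lower (14.9%), 1048 of 4261 were higher in PEP-619WW (24.6%) and 462 lower (10.8%), and 318 of 2755 genes were higher in both (11.5%) and 218 lower (7.91%). The counts of gene lists below stand beside these shares of all genes.

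**Figure D2:**
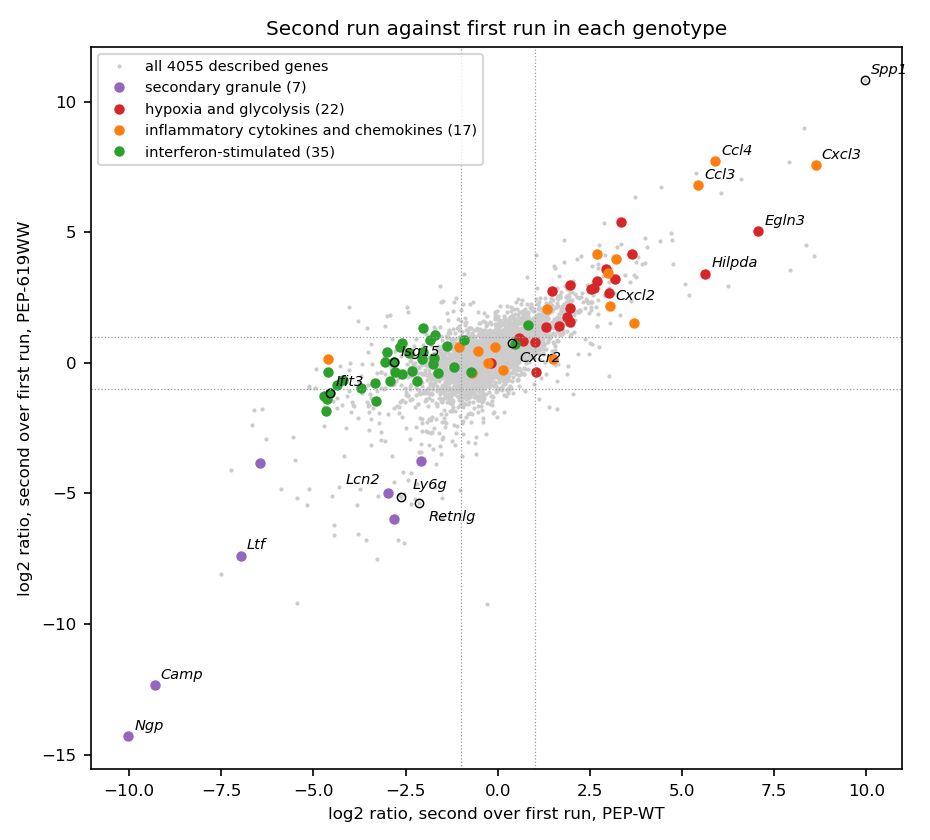
Log2 ratio of the second over the first run for each of 4055 described genes, PEP-WT on the horizontal and PEP-619WW on the vertical axis, with 4 gene lists in color and dotted lines at 2-fold. Secondary granule genes lay at the lower left, hypoxia and glycolysis genes and most cytokine genes at the upper right, and interferon-stimulated genes to the left, spread about 0 on the vertical axis.

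Secondary granule genes were lower in both genotypes. Of 9 secondary granule genes, 8 were described and 8 were lower in PEP-WT, with a median log2 ratio of -4.71, and 8 of 8 were lower in PEP-619WW, with -5.48. Genes at 0 UMIs in a library enter these medians at a bound set by a floor of 3 counts. *Ngp*, neutrophilic granule protein, had 2 and 1 UMIs in PEP-WT and PEP-619WW of the second run against 6800 and 13694 in the first, log2 ratios of -10.03 [-13.08 to -8.18] and -14.29 [-19.59 to -11.81]. *Camp*, the cathelicidin precursor, had 0 and 2 UMIs against 6176 and 7018. By the floor of 3 counts it was at least 634-fold lower in PEP-WT, where the exact interval of the log2 ratio reached -9.01. In PEP-619WW its log2 ratio was -12.32 [-15.37 to -10.47]. Lactoferrin (*Ltf*) stood at 8.68 and 8.75 CPM against 1095 and 1451. The second run libraries thus held almost none of the 3 transcripts that were abundant in the first.

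*Lcn2*, the iron-sequestering lipocalin, was lower without being lost, at 575 and 267 CPM against 4511 and 8323, or 7.84-fold and 31.2-fold. *Chil3*, a chitinase-like protein that monocytes also express, stood at 30.4 and 250.2 against 2646 and 3518, and without mixed barcodes at 20.1 and 22.3 against 1399 and 2461. Its level in PEP-619WW therefore lay mostly in mixed barcodes. Primary granule genes of the promyelocyte stage were at or near 0, with *Elane* and *Mpo* at 0 UMIs in both second run gates and *Prtn3*, proteinase 3, at 8 and 11 UMIs against 365 and 330 in the first run. *Elane* had 211 and 153 UMIs in the first run, but only 31.7 and 0.871 CPM there without mixed barcodes. Of 6 primary granule genes, 5 were described and lower in PEP-WT and 2 in PEP-619WW, and without mixed barcodes 1 in each. Of the tertiary granule genes, which are made later, 3 of 7 were lower and 1 higher in PEP-WT, and 5 of 7 were lower and 0 higher in PEP-619WW. Over all described genes 18% were lower and 10.8% higher in PEP-WT, and 7.52% lower and 22.7% higher in PEP-619WW. Without mixed barcodes 4 and 5 of 7 were lower and 0 higher. *Mmp9*, gelatinase B, stood at 732 and 592 against 898 and 1731, and *Mmp8*, the neutrophil collagenase, at 182 and 79.7 against 584 and 1168. *Itgam*, the integrin chain CD11b, was within 2-fold in both.

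Genes of the stefin list, mostly cysteine protease inhibitors and with them the aspartic protease *Asprv1*, were lower as well, 5 of 6 described in PEP-WT and 6 of 6 in PEP-619WW, and 6 of 6 in both without mixed barcodes. *Stfa2* had 3 and 28 UMIs in the second run against 350 and 827, log2 ratios of -5.17 [-7.45 to -3.61] and -5.43 [-6.03 to -4.89]. *BC100530* stood at 34.7 and 14.7 CPM against 331 and 498. The stefins are near-identical copies, and how reads were split among them is not known here. *Stfa2l1* was less far apart, at 712 and 739 against 1386 and 2176. Of 10 proliferation genes 9 were described, of which 7 were lower in PEP-WT and 8 in PEP-619WW, but without mixed barcodes 1 of 5 and 0 of 2 were.

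On the higher side stood chemokines and cytokines. Of 17 described genes of that list, 10 were higher and 2 lower in PEP-WT (median log2 ratio 1.5), and 9 higher and 0 lower in PEP-619WW (1.51). Without mixed barcodes 10 and 8 were higher and 2 and 1 lower, with medians of 1.08 and 0.80. *Ccl4*, a chemokine that attracts T cells and monocytes, stood at 6718 and 7717 CPM in PEP-WT and PEP-619WW of the second run against 114 and 36.3 in the first, 59.1-fold and 212-fold higher. *Ccl3*, its close relative, stood at 3109 and 3821 against 71.5 and 34.3, 43.5-fold and 111-fold higher. *Cxcl3*, a ligand of CXCR2, had only 9 and 16 UMIs in the first run, and stood at 2366 and 2032 against 6.02 and 10.8, with log2 ratios of 8.62 [7.69 to 9.75] and 7.56 [6.86 to 8.37]. In both genotypes the second run was the higher, and the intervals of the runs did not overlap for these genes.

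*Cxcl2*, another CXCR2 ligand and among the 10 genes of highest level in both second run gates, was present in both runs, at 10951 and 8245 CPM against 1336 and 1826, 8.20-fold and 4.51-fold higher. At 1000 UMIs per barcode *Cxcl2* was found in 64.1% and 67.7% of second run barcodes and in 6.01% and 8.18% of the macrophage class (unthinned, 61.0% and 70.0% of gated barcodes). *Il1b* did not follow them, at 4469.6 and 2951 against 5373 and 2942, whereas *Il1rn*, which encodes the antagonist of its receptor, stood at 920.4 and 1218 against 99.6 and 76.7. *Csf1*, the growth factor of macrophages, stood at 438 and 913 against 67.5 and 51.2, and at only 4.35 and 12 in the macrophage class. *Ptgs2*, cyclooxygenase 2, was 2.51-fold and 4.16-fold higher. *Tnf* and *Osm*, both cytokines of activated myeloid cells, were within 2-fold in both genotypes. *Cxcl10*, an interferon-induced chemokine, was past 2-fold in PEP-WT alone, at 126 against 259, and stood at 225 against 147 in PEP-619WW. The difference between the genotypes was not tested.

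Genes described in neutrophils of tumors were higher too, 15 of 19 in PEP-WT (median 2.43) and 19 of 19 in PEP-619WW (2.30), with 0 lower, and many of them are also macrophage genes. Without mixed barcodes 13 of 18 and 16 of 17 were higher. Ferritin heavy chain (*Fth1*), which stores iron, stood at 28574 and 23692 CPM against 5306 and 4610.2, and heme oxygenase 1 (*Hmox1*) at 417 and 451 against 49.5 and 50.5. *Spp1*, osteopontin, had 1533 and 5334 UMIs in the second run against 5 and 2 in the first, log2 ratios of 9.96 [8.73 to 11.58] and 10.83 [8.98 to 13.88]. It remained high without mixed barcodes, at 1851 and 3064 CPM, beside 1578 and 842 in the macrophage class. *Arg1*, arginase 1, behaved otherwise, at 475 and 415 with 0 UMIs in the first run. By the floor of 3 counts it was at least 237-fold and 205-fold higher, and the exact intervals of the log2 ratio began at 7.58 and 7.38. It stood at 206 and 18.4 without mixed barcodes and at 691 and 1247 in the macrophage class. *Tnfrsf23*, a decoy receptor for TRAIL, stood at 189 and 223 against 18.7 and 9.42, and at 7.11 and 6.92 in the macrophage class. *Thbs1*, thrombospondin 1, was 26.9-fold and 13.7-fold higher. *Cd274*, which encodes PD-L1, was 1.56-fold and 2.25-fold higher, and *Slc7a11*, a cystine transporter, 2.47-fold and 4.92-fold.

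The monocyte chemokines *Ccl7* and *Ccl2* were high in the second run and higher still in its macrophage class. *Ccl7* stood at 632 and 338 CPM, at 214 and 30.1 without mixed barcodes, and at 1258 and 1812 in the macrophage class. *Ccl2* stood at 1039.8 and 510.5, 440.0 and 73.8, and 2648 and 2311 in the same order. *Gpnmb*, a lysosomal glycoprotein of macrophages, stood at 219 and 77.4 against 496 and 101 in the macrophage class. How much of these 3 genes came from neutrophils cannot be told apart from transcripts of other cells here. By contrast *Cxcl2* and *Ccl3* stood at 124 and 160.1 and at 94.9 and 94.1 in the macrophage class, far under their levels in the gate. *Basp1*, a membrane-bound signaling protein, was 41.9-fold and 155-fold higher in the second run, at 1765 and 2083 CPM. Its log2 ratios were 5.39 and 7.27, and 5.42 and 8.33 without mixed barcodes. *Cdkn1a*, which encodes the cell cycle inhibitor p21, was 15.8-fold and 14.1-fold higher, and *Fnip2*, a partner of folliculin, 26.6-fold and 25.8-fold.

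Hypoxia and glycolysis genes were higher as a group. Of 22 described genes, 18 were higher in PEP-WT (median log2 ratio 1.96) and 17 in PEP-619WW (2.71), and 0 were lower. Without mixed barcodes 18 and 20 of 22 were higher, with medians of 2.25 and 2.80, so this group did not rest on those barcodes. *Hilpda*, a lipid droplet protein induced at low oxygen, stood at 1218 and 1194 CPM against 24.7 and 112, 49.2-fold and 10.7-fold higher, and at 189 and 169 in the macrophage class. *Egln3*, a prolyl hydroxylase that acts on hypoxia-inducible factor, had 2 and 12 UMIs in the first run and stood at 178 and 264 against 1.34 and 8.08. *P4ha1*, a collagen prolyl hydroxylase, was 10.1-fold and 41.8-fold higher, and *Bnip3*, a mitophagy receptor, 12.4-fold and 18.1-fold.

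The sugar transporter *Slc2a1* stood at 232 and 258 CPM against 30.1 and 21.5. Among the enzymes of glycolysis, hexokinase 2 (*Hk2*) was 6.41-fold and 8.72-fold higher, *Tpi1* 9.08-fold and 9.14-fold, *Eno1* 3.90-fold and 4.30-fold, and *Ldha* 3.91-fold and 2.99-fold. *Gapdh* and *Pkm* did not reach 2-fold in either genotype, with log2 ratios of 0.85 and 0.96 in PEP-619WW that became 1.04 and 1.22 without mixed barcodes. *Hk3*, a hexokinase of myeloid cells, stood at 89.0 and 99.5 against 101 and 101. *Slc2a3*, the other glucose transporter of the list, gave ratios of opposite sign, with log2 ratios of 1.03 [0.70 to 1.36] in PEP-WT and -0.37 [-0.60 to -0.13] in PEP-619WW. The higher level of the group was thus carried by some of its members and not by all. *Ero1l*, which oxidizes proteins in the endoplasmic reticulum and whose transcript also follows low oxygen, was 16.5-fold and 21.5-fold higher.

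The 250 bases upstream of the RefSeq starts (GRCm38.p6) of the hypoxia and glycolysis list were searched on both strands. The letters sought were ACGTG and GCGTG, the core bound by hypoxia-inducible factors. At least 1 match was present upstream of 19 of the 21 list genes found in the promoter table (90.5%), of 2064 of 3251 genes described in both run comparisons (63.5%) and of 11226 of 27025 genes in all (41.5%). A gene may have more than 1 window. By window, a match was present in 24 of 30 of the list (80%) and in 12679 of 32851 in all (38.6%). The share of the list with a match follows from which hypoxia and glycolysis genes it holds, and not from the levels measured here. A match is a description of letters and not a bound site, and the cause of the higher levels was not tested. *Tpi1* had none. A window of each of 4 genes with high ratios is shown 5′ to 3′ on the strand of the gene, with capitals for the matches in either orientation. *Hilpda* had 2 windows, of which 1 is shown. The windows shown differ widely in the number of matches: 1 in *Egln3*, 3 in *Hilpda*, 5 in *Bnip3*, of which a pair overlaps on opposite strands, and 3 in *P4ha1*.
*Egln3*, chr12:54203875-54204124, minus strand: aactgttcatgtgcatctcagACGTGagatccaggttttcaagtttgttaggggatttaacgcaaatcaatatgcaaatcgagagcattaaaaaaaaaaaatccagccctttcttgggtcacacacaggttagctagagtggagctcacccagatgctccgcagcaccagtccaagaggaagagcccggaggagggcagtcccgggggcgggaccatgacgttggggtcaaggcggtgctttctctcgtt
*Hilpda*, chr6:29272376-29272625, plus strand: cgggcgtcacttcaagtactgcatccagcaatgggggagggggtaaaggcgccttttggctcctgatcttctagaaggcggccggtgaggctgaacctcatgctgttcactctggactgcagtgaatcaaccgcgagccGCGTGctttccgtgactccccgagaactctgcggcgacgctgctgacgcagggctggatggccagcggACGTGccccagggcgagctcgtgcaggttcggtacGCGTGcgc
*Bnip3*, chr7:138909507-138909756, minus strand: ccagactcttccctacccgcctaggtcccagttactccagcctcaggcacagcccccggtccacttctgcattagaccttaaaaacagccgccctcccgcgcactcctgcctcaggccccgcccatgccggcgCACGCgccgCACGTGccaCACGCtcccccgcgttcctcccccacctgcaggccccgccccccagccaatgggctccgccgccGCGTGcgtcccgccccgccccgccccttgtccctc
*P4ha1*, chr10:59323046-59323295, plus strand: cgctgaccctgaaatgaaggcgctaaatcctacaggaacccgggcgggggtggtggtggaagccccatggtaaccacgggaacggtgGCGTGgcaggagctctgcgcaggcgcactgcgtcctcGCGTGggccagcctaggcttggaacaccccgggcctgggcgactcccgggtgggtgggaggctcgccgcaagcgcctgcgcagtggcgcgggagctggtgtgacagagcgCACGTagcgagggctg

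Interferon-stimulated genes were lower in the second run in PEP-WT. In PEP-WT 0 of 36 were higher and 32 lower in the second run (median log2 ratio -2.60), and in PEP-619WW 3 of 35 were higher and 5 lower (-0.16), and the difference between the genotypes was not tested. Without mixed barcodes 0 of 35 were higher and 32 lower in PEP-WT, and 6 of 34 higher and 6 lower in PEP-619WW. Scaling by the median ratio of all genes gave 1 higher and 31 lower in PEP-WT, and 1 higher and 11 lower in PEP-619WW, so that the balance in PEP-619WW depended on these choices. *Isg15*, an interferon-induced ubiquitin-like protein, stood at 395 and 675 CPM in the second run against 2757 and 664 in the first. *Ifit3*, which limits viral translation, stood at 39.1 and 137 against 921 and 303. For both genes the highest of the 4 values was the PEP-WT library of the first run and the lowest the PEP-WT library of the second, with both PEP-619WW libraries between. *Rsad2*, which encodes viperin, had the same highest and lowest libraries, at 256 and 686 against 915 and 370.2. *Ifitm1* and *Ifitm2*, membrane proteins that restrict viral entry, did not, at 2086 and 1771 against 1497 and 1064 for *Ifitm1* and 2014 and 2174 against 1150.4 and 794 for *Ifitm2*.

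Targets of interferon gamma were lower in both genotypes, 11 of 11 in PEP-WT (median -3.69) and 9 of 11 in PEP-619WW (-1.36), where 1 was higher. Without mixed barcodes 9 of 10 and 9 of 9 were lower and 0 higher. The guanylate-binding protein gene *Gbp2* stood at 82.5 and 183 CPM against 1137 and 796, and *Gbp4*, of the same family, had 1 and 33 UMIs against 491 and 389. *Iigp1*, an immunity-related GTPase, had 0 and 13 UMIs against 423 and 322. *Irf1*, the transcription factor upstream of many of them, stood at 102 and 172 against 645 and 479. The class I gene *H2-K1* was also lower, at 532 and 1064 against 3537 and 3389.9.

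Other functions of neutrophils gave smaller counts, beside 10.8% of all genes higher and 18% lower in PEP-WT and 22.7% higher and 7.52% lower in PEP-619WW (15.4%, 14.9%, 24.6% and 10.8% without mixed barcodes). Of the 6 genes of the NADPH oxidase, which makes superoxide, 3 were lower in PEP-WT and 1 in PEP-619WW, and without mixed barcodes 4 and 3. Its catalytic chain *Cybb* stood at 52.1 and 421 CPM against 713 and 681, and at 32.7 and 87.3 against 568 and 651 without them. *Ncf1*, the p47phox subunit, stood at 167 and 259 against 395 and 701. Of 14 chemotaxis and pattern receptors, 3 were higher and 2 lower in PEP-WT and 5 higher and 2 lower in PEP-619WW, and without mixed barcodes 2 of 13 higher and 2 lower, and 6 of 14 higher and 2 lower. *Tlr4*, the receptor for lipopolysaccharide, was 3.91-fold and 3.85-fold higher, the chemokine receptor *Ccr1* 2.17-fold and 2.34-fold, and the formyl peptide receptor *Fpr2* was 2.36-fold and 3.50-fold lower. *Fcgr4*, an activating Fc receptor, was lower, at 95.5 and 158 against 349.6 and 357. Of the survival and death genes, 4 of 14 genes were higher and 4 lower in PEP-WT and 6 higher and 1 lower in PEP-619WW, and without mixed barcodes 5 of 13 higher and 4 lower, and 7 of 14 higher and 2 lower. The anti-apoptotic *Mcl1* stood at 2442 and 2018 against 1463 and 1244, within 2-fold, and the inflammasome sensor *Nlrp3* was 2.84-fold and 2.20-fold higher. Of the immediate early and NF-kB feedback genes 6 of 17 and 7 of 18 were higher and 1 lower in each, and without mixed barcodes 4 of 15 higher and 2 lower, and 7 of 18 higher and 1 lower. *Ier3*, which is induced by NF-kB, stood at 2014 and 1849.8 against 308 and 133.

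The comparison of genotypes in the second run asked how gated barcodes of PEP-619WW differed from those of PEP-WT. Of 5242 described genes, 918 were at least 2-fold higher in PEP-619WW (17.5%) and 67 lower (1.28%). The median log2 ratio of all described genes was 0.43, and scaling by that median gave 380 higher and 196 lower genes. Without mixed barcodes 340 of 3298 were higher (10.3%) and 72 lower (2.18%). In the first run 78 of 5140 were higher (1.52%) and 162 lower (3.15%), and without mixed barcodes 97 of 3718 were higher (2.61%) and 116 lower (3.12%). These shares stand beside the counts of gene lists between genotypes below.

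Interferon-stimulated genes were higher in PEP-619WW, 24 of 35 with 0 lower and a median log2 ratio of 1.31. Without mixed barcodes 26 of 33 were higher, with a median of 1.40, so the result was as large without them. Scaled by the median ratio of all genes, 16 of 35 were higher and 0 lower, with a median of 0.87. *Isg15* had a log2 ratio of 0.77 [0.55 to 1.00], and of 1.16 [0.93 to 1.41] without mixed barcodes. *Ifit1* stood at 91.2 CPM in PEP-WT and 273 in PEP-619WW, with a log2 ratio of 1.58 [1.13 to 2.07], and at 65.4 and 423 without mixed barcodes. *Ifit3* gave 1.81 [1.13 to 2.59] and, without mixed barcodes, 3.07 [2.12 to 4.22], and *Rsad2* gave 1.42 [1.15 to 1.70] and 2.30 [1.98 to 2.63]. *Irf7*, the transcription factor that amplifies interferon signaling, stood at 34.7 and 159.9, and *Slfn5*, a Schlafen family member, at 182 and 596. In the first run 0 of 36 were higher in PEP-619WW and 19 were lower, with a median of -1.04. The genotypes thus stood in opposite order in the 2 runs, and this difference was not tested. In the macrophage class of the second run *Isg15* also stood higher in PEP-619WW, at 92.9 and 248, as did *Ifit3* at 18.8 and 55.2.

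**Figure D3:**
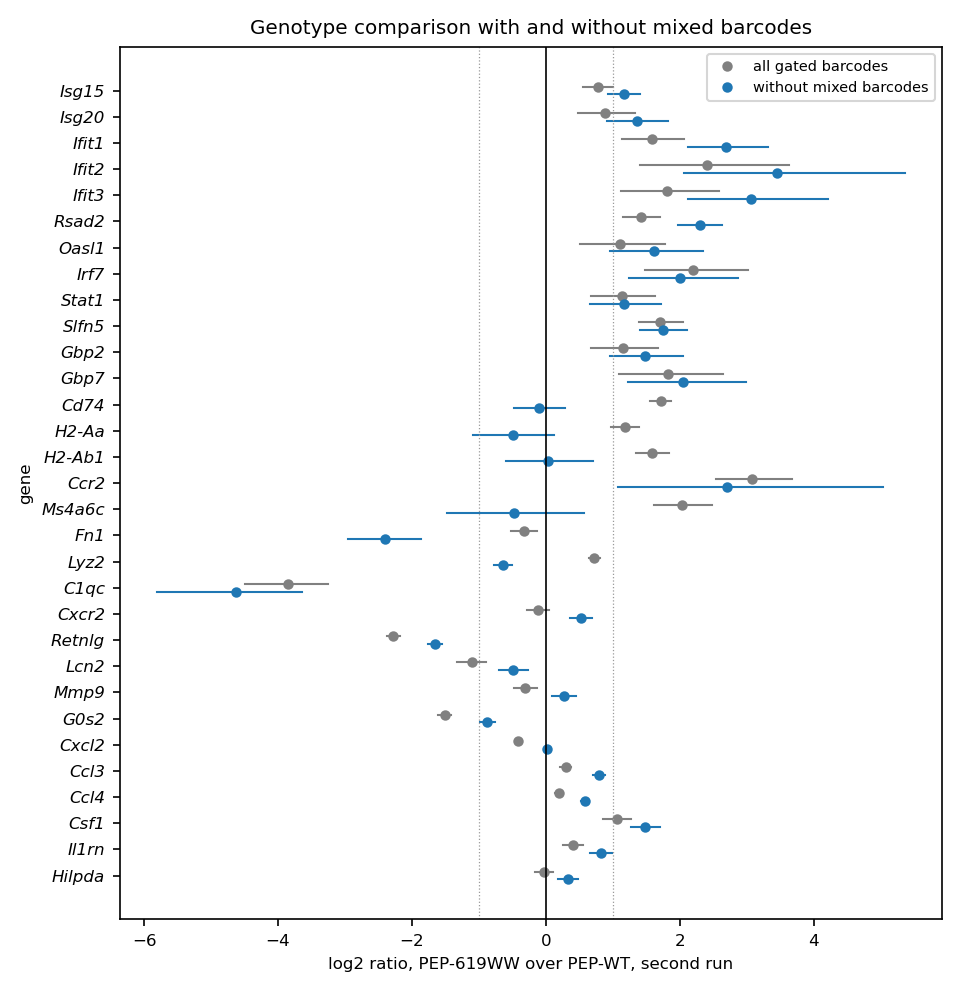
Log2 ratio of PEP-619WW over PEP-WT in the second run for 31 genes (horizontal axis), for all gated barcodes in gray and without mixed barcodes in blue, with exact 95% intervals as lines and dotted lines at 2-fold. The 12 interferon-induced genes at the top lay above 0 in both sets, whereas *Cd74*, *H2-Aa* and *Ms4a6c*, which help to define mixed barcodes, moved from above 0 to below it without them.

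Class II genes define the mixed barcodes in part, so their fall when these were left out was fixed by that definition. Of 10 genes of MHC and antigen presentation 6 were higher in PEP-619WW, beside 17.5% of all genes, and 0 of 10 without mixed barcodes. The list holds the defining genes *Cd74*, *H2-Aa*, *H2-Ab1* and *H2-Eb1*. *Cd74*, the invariant chain, stood at 788 and 2588 CPM in PEP-WT and PEP-619WW, and at 209 and 195 without mixed barcodes, which its own UMIs help to define. *Ccr2*, a monocyte receptor that also helps to define them, stood at 60.8 and 512, and at 7.54 and 49.5. Among the 12 genes with the largest ratios on the higher side, *Ms4a4c*, a membrane protein, stood at 15.2 and 199 but at 0 and 9.70 without mixed barcodes. *Tnip3*, an inhibitor of NF-kB signaling, stood at 2.17 and 49.3 but at 0 and 3.88, and *Ly6a*, the surface antigen Sca-1, at 19.5 and 179 but at 12.6 and 34.9. The corepressor *Cbfa2t3*, the ribonuclease *Rnase6* and the transcription factor *Pou2f2* stood at 75.1, 69.6 and 115 in PEP-619WW and 6.51, 6.51 and 10.9 in PEP-WT. Without mixed barcodes they stood at 19.4, 16.5 and 40.8 against 0, 5.03 and 10.1. The level of each of these 6 genes in PEP-619WW was thus smaller once mixed barcodes were left out, and it was still above that of PEP-WT, on few UMIs.

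*Gzma*, the cytotoxic granule protease of lymphocytes, had 0 UMIs in PEP-WT and 284 in PEP-619WW. By the floor of 3 counts it was at least 20.1-fold higher, and the exact interval of the log2 ratio began at 4.02. In PEP-619WW it stood at 228 CPM without mixed barcodes and at 178 in the lymphocyte class of the library. *Ccl5*, a chemokine of T and NK cells, stood at 15.2 and 259.9, and at 17.6 and 242, beside 817 and 1639 in the lymphocyte class. The lymphocyte class, with UMIs of *Cd3e* or *Cd79a*, made up 0.545% of all PEP-WT barcodes in the second run but 16.4% for PEP-619WW (68.7% and 64.3% in the first run), and its part in these values was not tested. The 9 T and NK cell genes summed to 23.9 and 139.6 CPM in the 2 gates, with 5 and 0 of them at 0. *Plac8* stood at 89.0 and 1372, and at 37.7 and 380.4 without mixed barcodes, and *Ifi209*, interferon-induced, at 8.68 and 99.1, then 2.51 and 34.9. *Traf1*, a signaling adaptor of TNF receptors, and *Rnf34*, a ubiquitin ligase, had log2 ratios of 3.46 [1.89 to 5.76] and 3.23 [1.66 to 5.53]. Without mixed barcodes these were 2.53 and 3.82.

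*Xist* (215 and 0.461 CPM) and *Hbb-bs*, a hemoglobin chain (267 and 1.38), led the lower side, and *Gm42418* and *AY036118*, which overlap ribosomal RNA repeats, and *Lars2*, a mitochondrial leucyl-tRNA synthetase, had log2 ratios of -3.06, -3.75 and -3.09. The macrophage genes *Ccl8* (469 and 4.15), *C1qc* (206 and 14.3), *Ccl12* (256 and 34.1) and *Mmp12* (163 and 24.0) were also much higher in the macrophage class of PEP-WT than in its gate, at 4177, 2182, 1728 and 708. Their log2 ratios between genotypes were -6.82, -3.85, -2.91 and -2.76, and -6.27, -4.63, -4.85 and -4.76 without mixed barcodes. How far these genes are transcripts of the gated cells was not tested. Neutrophil identity genes also stood on this side, 5 of 16 lower and 0 higher beside 1.28% and 17.5% of all genes, with a median log2 ratio of -0.59 against 0.43 over all genes. Without mixed barcodes 2 of 16 were lower and 0 higher, beside 2.18% and 10.3%, with a median of -0.03. In the first run 0 of 16 were past 2-fold. The 5 were *Retnlg*, with a log2 ratio of -2.28 [-2.38 to -2.18] (-1.65 [-1.76 to -1.55] without mixed barcodes), *Wfdc21*, with -1.79 [-2.01 to -1.58] (-1.0 [-1.22 to -0.77]), *Ly6g*, with -1.74 [-2.58 to -0.88] (-1.03 [-1.88 to -0.15]), *Trem1*, a receptor that amplifies inflammation, with -1.05 [-1.37 to -0.73] (-0.44 [-0.78 to -0.10]), and *G0s2*. *G0s2*, which inhibits fat breakdown, stood at 2742 and 962, and at 2949 and 1608 without mixed barcodes. Of the granule and stefin genes *Lcn2*, *Mmp8* and *Stfa1* were past 2-fold lower, with log2 ratios of -1.11, -1.19 and -1.09 that became -0.49, -0.92 and -0.54 without mixed barcodes. *Chil3* and *Olfm4*, another secondary granule gene, were higher, with 3.04 and 1.29, which became 0.15 and 1.71 on fewer than 50 UMIs each.

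Most hypoxia genes and chemokines were within 2-fold between the genotypes of the second run. Of 22 hypoxia and glycolysis genes 0 were higher and 0 lower, with a median log2 ratio of 0.31, under the 0.43 of all genes. *Hilpda* had a ratio of -0.03 [-0.16 to 0.11] and *Tpi1* one of 0.25 [0.07 to 0.44]. Without mixed barcodes 3 of 22 were higher, *Egln3* among them at 173 and 380.4 CPM. Of 17 cytokine and chemokine genes 2 were higher and 1 lower, and 3 and 2 without mixed barcodes, where 17.5% of all genes were higher and 1.28% lower (10.3% and 2.18% without mixed barcodes). Most of all genes were thus within 2-fold too. *Cxcl2* had a ratio of -0.41 [-0.45 to -0.36], and of 0.02 [-0.03 to 0.07] without mixed barcodes, *Ccl3* of 0.30 [0.22 to 0.38] and 0.79 [0.70 to 0.88], and *Ccl4* of 0.20 [0.14 to 0.26] and 0.58 [0.52 to 0.64]. *Csf1* was higher in PEP-619WW by 2.08-fold, and by 2.80-fold without mixed barcodes. *Cxcr2* gave -0.12 [-0.28 to 0.04] and 0.53 [0.36 to 0.70], and *Mmp9* -0.31 [-0.48 to -0.13] and 0.27 [0.09 to 0.45], so that small differences of these genes took the sign of the set of barcodes used.

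Few UMIs were found of *Ptpn22*, the gene that differs between the genotypes, with 7 and 85 in the second run (15.2 and 39.2 CPM) and 49 in each library of the first (32.8 and 33.0). The log2 ratio of the genotypes in the second run was 1.37 [0.26 to 2.72], an interval too wide to separate a small from a large difference at this depth. Of 9 described genes of PEP and its partners, 3 were at least 2-fold higher in PEP-619WW and 0 lower, beside 17.5% of all genes. Without mixed barcodes 1 of 8 was higher, beside 10.3% of all genes, and in the first run 0 of 9. *Csk*, the kinase that binds PEP, stood at 39.1 and 78.8 (1.01 [0.31 to 1.80]). *Lyn* and *Syk*, kinases of the same signaling chain, stood at 258 and 324 and at 224 and 209.

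Barcodes of a library varied widely in chemokine transcripts. The sum of *Cxcl2*, *Cxcl3*, *Ccl3* and *Ccl4* had a median of 45.7 UMIs per 10000 in PEP-WT and 83.8 in PEP-619WW of the second run, over barcodes that were not mixed, against 4.01 and 4.69 in the first. It was 0 in 62 of 228 barcodes (27.2%) and 125 of 528 (23.7%), and at least 100 in 99 (43.4%) and 250 (47.3%). In the first run at least 100 was reached by 25 of 363 (6.89%) and 21 of 297 (7.07%). The sum of *Retnlg*, *Mmp8*, *Lcn2*, *Wfdc21* and *Pglyrp1*, genes of late maturation, had medians of 29.6 and 14.2 in the second run and 223 and 542 in the first. The genes of both sums were picked after their values were seen, so the direction between the runs was set by that choice, and the sums describe the spread among barcodes.

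**Figure D4:**
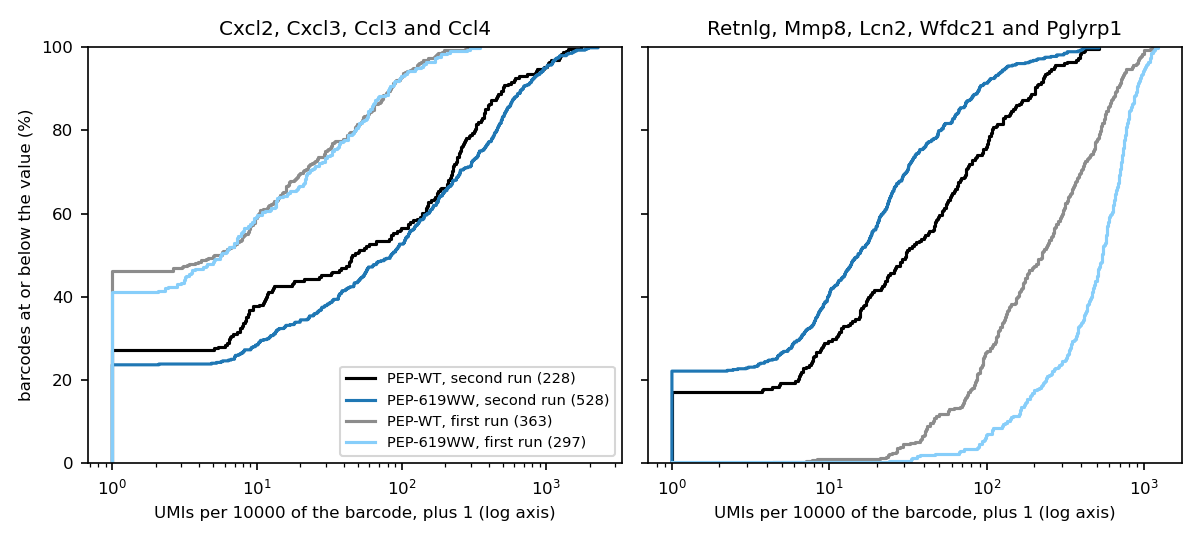
Cumulative share of barcodes (vertical axis, %) at or below a summed level in UMIs per 10000 of the barcode plus 1 (log axis), for 4 chemokine genes at left and 5 maturation genes at right, in the 4 libraries without mixed barcodes. Both second run curves lay to the right of the first run curves at left and to the left of them at right, and the step at 1 is the share of barcodes at 0.

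Within each second run library, several genes that set the run apart went with the chemokine sum, among 22 genes chosen after their values were seen. Barcodes were divided at 100 UMIs per 10000, a point on a continuous range with 34 PEP-WT and 114 PEP-619WW barcodes between 50 and 200, and chosen after the data were seen. Barcodes above it were deeper, with median UMIs of 1766 against 1383 in PEP-WT and 2049 against 1252.5 in PEP-619WW. Their median mitochondrial share was also higher, at 4.50% against 3.22% in PEP-WT and 0.498% against 0.261% in PEP-619WW, and its part in the values below was not tested. The monocyte and macrophage list had a median of 23.4 UMIs per 10000 above and 35.4 below in PEP-WT, and 11.7 and 12.8 in PEP-619WW. *Hilpda* stood at 2139 CPM above and 292 below in PEP-WT and at 2466 and 379.7 in PEP-619WW. *Il1rn* stood at 1723 and 228, and 2536 and 773, in the same order. *Spp1* stood at 3179 and 372, and 4834 and 611. Higher values above the division were found in both libraries for these 3 genes, none of which is in the sum.

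*Cd274* also stood higher above it, at 659 against 143 CPM in PEP-WT and 834 against 222 in PEP-619WW, as did the decoy receptor *Tnfrsf23*, the glucose transporter *Slc2a1*, *Thbs1* and *Csf1*. Genes of circulating and maturing neutrophils stood lower, with *Cxcr2* at 625 against 1233 and 851 against 1956 and *Retnlg* at 1862 against 7177 and 605 against 2479.5. *G0s2*, another neutrophil gene, stood higher, at 3728 against 2083 and 2082 against 952. *Il1b* differed less, at 4335 against 5626 and 4368 against 4878. *Isg15* stood at 506 against 319 in PEP-WT and at 974 against 882 in PEP-619WW, so that the genotype difference in this gene was present on both sides of the division.

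Clustering of the 910 barcodes gave 5 clusters, each mostly from 1 library, and they were left without names. Differences between clusters of different libraries cannot be told apart from differences between the libraries. Cluster 1 (280 barcodes, 269 of them PEP-619WW) and cluster 5 (108, of which 104 PEP-WT) held the highest *Cxcl2*, at 18586 and 18193 CPM, and *Hilpda*, at 2524 and 1741. Cluster 2 (237, of which 234 PEP-619WW) and cluster 4 (118, of which 108 PEP-WT) held the highest *Cxcr2*, at 2356 and 1438, and *Retnlg*, at 2881 and 8216, with *Cxcl2* at 1832 and 1021. These levels are a description, since the genes took part in forming the clusters. Each library thus had a cluster of high chemokine and a cluster of high *Cxcr2* levels. Cluster 3 (167 barcodes, 150 of them mixed, median 7163 UMIs) was led by *Ifi205*, *Ccl22*, *Ms4a4c* and *Siglech*, genes of dendritic cells and monocytes. Clusters 4 and 5 were also led by *Gm42418*, *AY036118* and *Ccl8*, and cluster 5 by hemoglobin genes and *Xist*.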

How the data were processed

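Single cell libraries were described from the raw gene by barcode UMI counts that the authors deposited, made from 10x Genomics 3' reads with Cell Ranger 6.0.0 and mm10 per the submitters' processing notes. Each of the 2 runs held 1 library of each genotype, so no test, p-value or standard error was computed. The counts were read as deposited, and 32158 of 32285 gene IDs matched a symbol. UMIs were summed over gated barcodes, scaled to UMIs per 1000000, and given exact Poisson 95% intervals. Ratios of 2 libraries were given exact conditional intervals. Genes with at least 50 UMIs in both libraries together were described, and 2-fold was the mark for higher or lower. The gate genes were left out of these counts. A gene at 0 in 1 library was set to a floor of 3 counts per library, which gives a bound, and the exact interval can reach past that bound.

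The members of the gate and the gene lists were chosen with earlier results of these data known, and 4 chemokine and 5 maturation genes were picked for the sums per barcode after their values were seen. The genes named were the gate genes, the 12 of largest ratio in each direction among those with at least 100 UMIs and an interval wholly past 2-fold, members of the identity, granule, chemokine and other-cell lists, and the 10 of highest level. In the comparison of runs over both genotypes the smaller of the 2 ratios was ranked. Immunoglobulin, T cell receptor, mitochondrial and ribosomal protein genes were not named. Hypoxia, interferon, receptor and other list genes given as examples were chosen after their values were seen. The list symbols *Cstdc4*, *Cstdc5*, *Cstdc6*, *Ero1a*, *Mx1* and *Clec7a* matched no ID, and *Ero1l* was read in place of *Ero1a* outside the list.

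Shares of barcodes were computed after thinning each barcode to 1000 UMIs. Gated barcodes were clustered by the Leiden method on 2000 variable genes, 10 principal components and 15 neighbors at resolution 0.5. Scrublet called 0 to 1 doublets per library and so had not worked, and the 5% of barcodes with the highest scores were left out as an alternative. Leaving out mixed barcodes and scaling without *Gm42418* and *AY036118* were chosen after the data were seen. Leaving out mixed barcodes lowers *Cd74*, class II and monocyte genes by construction. The fourth monocyte gene of that definition is not reported here. The tools were scanpy 1.11.5, igraph 0.11.9, scipy 1.17.1, numpy 2.4.6, matplotlib 3.10.9 and pandas 2.3.3 under Python 3.11.15. Coverage of the intervals and direction of the ratios were checked on UMIs simulated from the Poisson model that the intervals assume. That check could not show the effect of spread among barcodes, and the 2-fold calls were not checked.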

Additional observations from a re-analysis of the deposited data

Results flagged for a closer look

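Of the lists compared between genotypes, 3 had medians of opposite sign in the 2 runs and at least 0.5 from 0 in each, over at least 5 genes, and other lists were of opposite sign with a smaller median in a run. The median log2 ratio of PEP-619WW over PEP-WT in interferon-stimulated genes was 1.31 in the second run (35 genes) and -1.04 in the first (36 genes), and without mixed barcodes 1.40 and -1.06. Targets of interferon gamma gave 1.31 (10 genes) and -0.68 (11 genes), and without mixed barcodes 1.45 and -0.80. Genes of MHC and antigen presentation gave 1.01 and -0.51 over 10 genes each, and without mixed barcodes 0.39 and -0.46, and some of them define those barcodes. With 1 library per genotype and run, none of these 3 differences between runs was tested.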

How the results depend on the processing

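No paired analysis was made, each genotype had 1 library per run, and no comparison comes from a test. The shallow gate of PEP-WT in the second run limits low genes, and the intervals leave out the spread between animals and libraries. Of 1770 values under the alternatives for 144 log2 ratios of single genes, 1244 stayed within the interval. In all 58 were of the opposite sign, and for 3 of these the ratio had been at least 2-fold: without mixed barcodes *Tnip3* gave -0.96 between genotypes, a bound against the floor in PEP-WT, with PEP-619WW still the higher at 3.88 against 0 CPM, *Cd74* gave -0.10, and with at least 2 UMIs of *Csf3r* *Elane* gave 0.051 between runs in PEP-WT, which is also set by the floor, since the second run gate had 0 UMIs of it. The cause of other shifts was not tested. In the second run the gate held 1.95% (PEP-WT) and 4.27% (PEP-619WW) of barcodes at 50 UMIs of the S100 genes, 1.47% and 4.35% at 2 UMIs of *Csf3r*, 2.13% and 4.66% without *Csf1r* UMIs and 2.04% and 5.10% from 1000 UMIs. It held 1.95% of PEP-WT without barcodes over 10% mitochondrial UMIs, and 7.0% of PEP-619WW at 10 S100 UMIs, 5.64% without the highest Scrublet scores and 4.79% without mixed barcodes. The number of genes described changed with some settings and is given beside these counts. The 985 of 5242 genes past 2-fold between genotypes became 447 of 3539 without *Csf1r* UMIs and 412 of 3298 without mixed barcodes. Thinning gave 279 of 2176, and minimums of 20 and 200 UMIs gave 1902 of 7602 and 230 of 1954. Of the same 5242 genes, 576 were past 2-fold when scaled by the median ratio, and 2218 and 321 were past 1.5-fold and 3-fold. Scaling without *Gm42418*, *AY036118*, gate and mitochondrial genes gave 562 higher and 119 lower of 5242. Scaling the run comparison of PEP-619WW without gate and mitochondrial genes gave 1098 and 604 of 6142. Between runs, the 1174 of 4081 genes of PEP-WT became 453 of 1519 thinned. They became 2171 of 6553 and 392 of 1292 at the UMI minimums, and 2076 and 586 of 4081 at the folds. The 1857 of 6142 genes of PEP-619WW became 842 of 2442 thinned, 807 of 2581 at 200 UMIs, and 3207 and 859 of 6142 at the folds. The 595 of 4055 genes of both became 373 of 2931 at 2 UMIs of *Csf3r* and 262 of 1490 thinned. They became 946 of 6507 and 227 of 1281 at the UMI minimums, and 1117 and 275 of 4055 at the folds. Scaling by the median ratio moved the median of hypoxia genes to -0.13 between genotypes and 2.34 between runs in PEP-619WW, of cytokines to -0.28 and 1.14, and of interferon-stimulated and monocyte genes between runs in PEP-619WW to -0.53 and 1.57. Leaving out *Csf1r* barcodes gave cytokine medians between runs of 1.21 in PEP-WT and 0.97 in PEP-619WW, and monocyte medians of 0.20 and 1.51. The secondary granule median between genotypes was 0.24 over only 4 described genes, and -0.75 over 3 without *Csf1r* barcodes. Leaving out mixed barcodes gave cytokine medians of 0.33 between genotypes and 1.08 and 0.80 between runs, and monocyte medians of -0.53, 2.47 and 0.89. It gave a secondary granule median of -0.82 between genotypes, over 2 genes. At 500 UMIs *Cxcr2* was found in 33.9% and 41.8% and *Cxcl2* in 52.5% and 56.5% of barcodes, and *Cxcr2* unthinned in 63.1% and 70.6%, and without mixed barcodes in 59.8% of PEP-619WW. Resolution 1.0 gave 11 clusters.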

Other observations

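Other transcripts in the gates are given as values. The 5 erythroid genes summed to 662 CPM in PEP-WT and 3.23 in PEP-619WW of the second run and to 3041 and 91.5 in the first. The 6 B and plasma cell genes summed to 69.5 and 126 CPM in the second run and to 1504 and 3473 in the first, and 4 and 1 of them were at 0 in the second run gates. The 6 genes of basophils, mast cells and eosinophils had 0 and 10 UMIs in the second run and 211 and 7 in the first. The 7 dendritic cell genes summed to 43.4 and 74.6 CPM in the second run.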
